A study of Homo sapiens with 4 samples.

Results

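The 9 genes described here encode enzymes and core factors of 2 repressive marks of chromatin, DNA methylation and the methylation of histone H3 at lysine 27 (H3K27). Their products write, copy or remove DNA methylation, or write the H3K27 mark. The genes are DNMT1, UHRF1, DNMT3A, DNMT3B, TET2, TET3, EZH2, SUZ12 and EED, taken by gene symbol from a table of 17634 genes. The rule itself uses no measured value, but the genes were chosen with earlier results of these data known. All 9 were in the table and all 9 passed the filter on low counts, which left 15781 genes. Expression was measured by RNA sequencing of total RNA from PC-3, a prostate cancer cell line that was derived from a metastasis in bone. The PC-3-RRM2 cells (n = 2 libraries) carried a lentiviral vector encoding RRM2, the small subunit of ribonucleotide reductase, which makes the deoxyribonucleotides for DNA synthesis. The PC-3-EV cells (n = 2 libraries) carried the empty vector. The overexpressing cells were a stable line kept under puromycin. The vector's promoter, and whether each line is a pool or 1 clone, are details not given in these sources. A difference between the lines and an effect of RRM2 cannot be told apart with 1 line of each kind. The comparison asks how the transcripts of the methylation machinery differed in cells made to overexpress RRM2.

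DNA methylation is laid down on unmethylated CpG sites by the de novo methyltransferases DNMT3A and DNMT3B. After replication DNMT1, guided by UHRF1 to sites methylated on the old strand, copies the pattern to the new strand, and the TET dioxygenases oxidise methylated cytosine on the way to its removal. Polycomb repressive complex 2 (PRC2) has EZH2, or its paralogue EZH1, as the enzyme that methylates H3K27, held in an active complex by SUZ12 and EED. EZH2 is known for high expression in advanced prostate cancer.

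The 4 libraries held 30149169 to 37801278 counts, and the PC-3-EV library of replicate 1 was the deepest. RRM2 itself was at 96.6 and 98.8 CPM (counts scaled to library size, in the usual CPM unit) in the PC-3-RRM2 libraries, against 21.8 and 20.8 CPM in the PC-3-EV libraries, a 4.59-fold difference (adjusted p = 2.53e-06). Across genes, the log2 CPM values correlated at 0.991 between the PC-3-RRM2 libraries, 0.995 between the PC-3-EV libraries and 0.954 to 0.957 between groups. Markers listed for leukocytes, fibroblasts and endothelium ranged from 0 to 3876 counts in a library. The vascular markers VWF and CDH5 had at most 9 counts in any library, and the leukocyte marker PTPRC had 17 to 18 in PC-3-RRM2 and 9 to 12 in PC-3-EV. Other listed markers were well detected, among them PECAM1 (281 to 282 in PC-3-RRM2 and 704 to 913 in PC-3-EV), CD68 (2789 to 3248 in PC-3-RRM2 and 3303 to 3876 in PC-3-EV) and COL1A1 (1691 to 2452 in PC-3-RRM2 and 2406 to 2462 in PC-3-EV). The epithelial keratin KRT18 had 3383 to 3684 counts in PC-3-RRM2 and 3336 to 3862 in PC-3-EV. In this bulk RNA, fewer cells that express a gene and less RNA of it per cell cannot be told apart.

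DNMT3B and EZH2 rose in PC-3-RRM2 cells, and these were the only members called among the 9. DNMT3B was at 2.01 times its PC-3-EV level, while EZH2 was at 1.51 times and sat on the threshold. A gene was called at an adjusted p below 0.05 (edgeR's quasi-likelihood test, adjusted by Benjamini-Hochberg across the 15781 genes) and a fold change over 1.5. The 2 members called higher compare with 9.97% of all genes called higher. None of the 9 was called lower by edgeR, DESeq2 or limma-voom, beside 8.19% of all genes called lower by edgeR, although 4 members had an unadjusted p below 0.05 in that direction. In either direction 18.2% of all genes were called. Leaving the fold aside, 5 members (DNMT3A, DNMT3B, TET3, EZH2 and SUZ12) had an adjusted p below 0.05, beside 34.2% of all genes. The groups did not overlap in CPM for 7 of the 9, the exceptions being DNMT1 and UHRF1, and this share is near the 69.0% of all genes that did not overlap. The median log2 fold change of the 9 was 0.07, beside 0.00 over all genes tested, where the quartiles were -0.27 and 0.28.

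**Figure D1:**
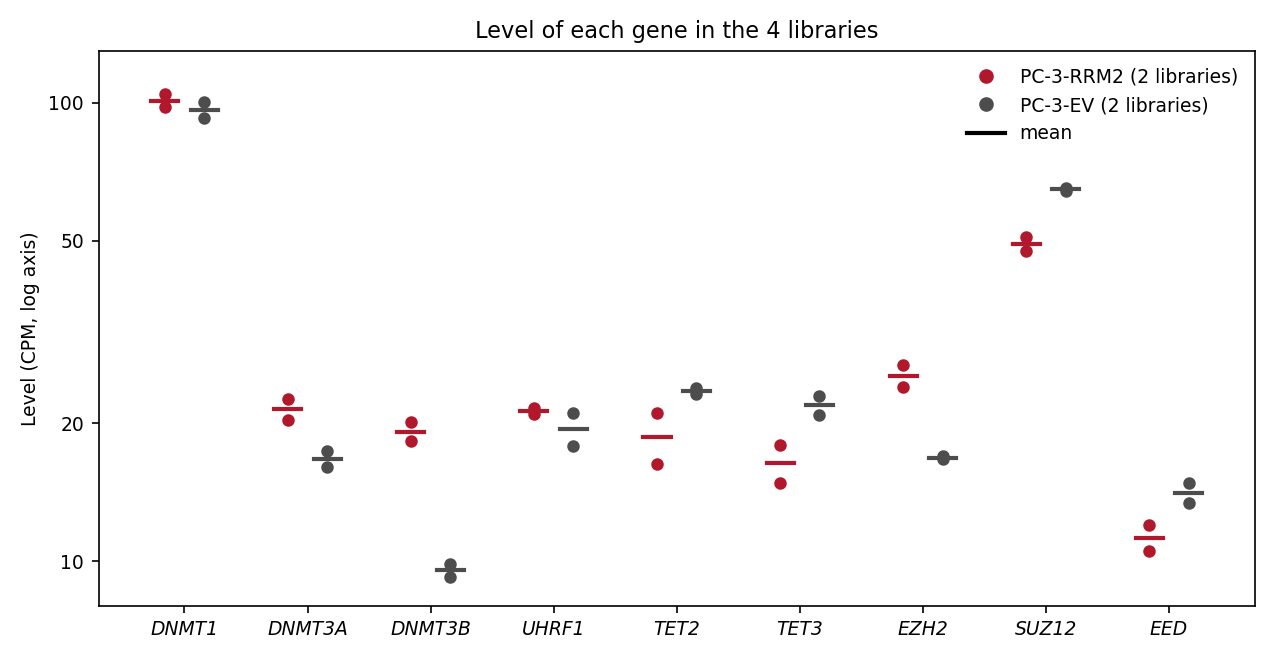
Level of each of the 9 genes in CPM (vertical log axis) in the 2 PC-3-RRM2 libraries (red, left) and the 2 PC-3-EV libraries (grey, right), with the mean of each group as a bar. DNMT3B and EZH2 stand above their PC-3-EV levels without overlap, SUZ12 stands below, and the points of DNMT1 and UHRF1 overlap.

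**Figure D2:**
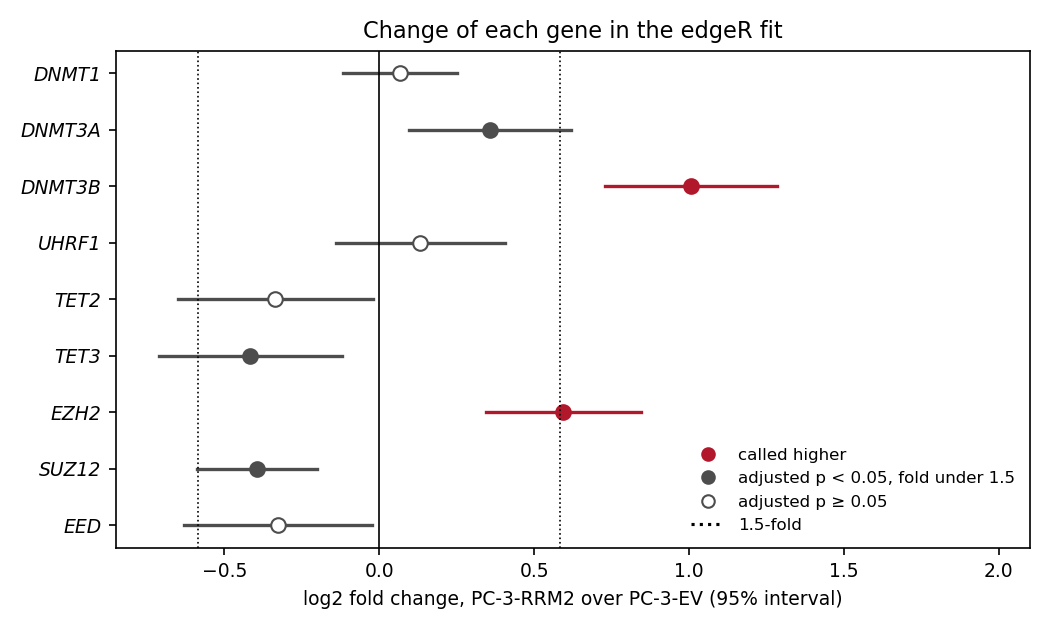
Log2 fold change of each gene, PC-3-RRM2 over PC-3-EV (horizontal axis), with its 95% interval from the edgeR fit on 2 libraries of each group. Red marks the 2 genes called higher, filled grey an adjusted p below 0.05 with a fold change under 1.5, open grey the others, and dotted lines the 1.5-fold threshold, which the EZH2 point touches.

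Of the de novo methyltransferases DNMT3B rose in PC-3-RRM2 cells, and DNMT3A passed on its p but not on its fold change. DNMT3B (chr20:32762385-32809356, GRCh38, + strand) was at 20.1 and 18.3 CPM in PC-3-RRM2, against 9.25 and 9.87 CPM in PC-3-EV. Its lowest PC-3-RRM2 library stood well above its highest PC-3-EV library. The log2 fold change was 1.01 (SE 0.12, 95% interval 0.73 to 1.28, adjusted p = 0.000666), and DNMT3B was called higher under all 15 alternatives, at 0.94 to 1.07. DNMT3A (chr2:25232961-25342590, - strand), the main de novo enzyme of many adult tissues, was at 22.6 and 20.3 CPM in PC-3-RRM2, against 16.1 and 17.4 CPM in PC-3-EV. Its groups did not overlap, but the 1.28-fold difference (log2 0.36, SE 0.11, 95% interval 0.10 to 0.62, adjusted p = 0.0421) did not reach the fold threshold. Adjusted p was above 0.05 with DESeq2, with a replicate block, and without either PC-3-EV library or the PC-3-RRM2 library of replicate 1. Over the 15 alternatives the log2 value was 0.28 to 0.43.

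Because a ratio of 2 genes within 1 library does not depend on how the libraries are scaled, the balance between the methyltransferases was also taken per library. The count of DNMT3B over that of DNMT3A was 0.891 and 0.900 in PC-3-RRM2, against 0.576 and 0.567 in PC-3-EV. DNMT3B over DNMT1 was 0.192 and 0.187 in PC-3-RRM2, against 0.0999 and 0.0983 in PC-3-EV, a 1.91-fold difference. Both ratios separated the groups. That separation was already set by the levels, since DNMT3B differed by more between groups than DNMT3A or DNMT1 did. It is therefore not a result beyond the DNMT3B difference. No exact permutation test of 2 libraries against 2 can reach a p of 0.05, and no ratio was tested.

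Neither gene of the maintenance pair was called, and the libraries of the groups overlapped for both. DNMT1 (chr19:10133344-10195135, - strand) was at 104 and 97.9 CPM in PC-3-RRM2, against 92.7 and 100.4 CPM in PC-3-EV (log2 0.07, SE 0.08, 95% interval -0.12 to 0.25, adjusted p = 0.549). With offsets adjusted for the GC content of transcripts, DNMT1 was at 0.11 (adjusted p = 0.046), while its adjusted p was between 0.227 and 0.971 in the alternatives that left out a library. UHRF1 (chr19:4903080-4962154, + strand), which reads such sites through its SRA domain, was at 21.0 and 21.6 CPM in PC-3-RRM2, against 17.8 and 21.1 CPM in PC-3-EV. Its log2 fold change was 0.13 (SE 0.12, 95% interval -0.14 to 0.41, adjusted p = 0.418). The 95% intervals reach from -0.12 to 0.25 for DNMT1 and from -0.14 to 0.41 for UHRF1 on the log2 scale. Neither a rise nor a fall was therefore excluded, and an interval's end is not a maximum. UHRF1 over DNMT1 was 0.201 and 0.220 in PC-3-RRM2 and 0.192 and 0.210 in PC-3-EV, so this ratio overlapped between groups.

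TET2 and TET3, which act in the opposite direction to the methyltransferases, were at lower levels in both PC-3-RRM2 libraries, and neither was called. Their paralogue TET1 was at 7.31 and 7.29 CPM in PC-3-RRM2, against 7.14 and 6.31 CPM in PC-3-EV (log2 0.12, adjusted p = 0.567). TET3 (chr2:73986404-74108175, + strand) was at 17.9 and 14.8 CPM in PC-3-RRM2, against 20.9 and 22.9 CPM in PC-3-EV (log2 -0.42, SE 0.13, 95% interval -0.71 to -0.12, adjusted p = 0.0386). That adjusted p was above 0.05 with no filter on low counts, with a stricter filter and with a replicate block. It was also above 0.05 without either PC-3-EV library or the PC-3-RRM2 library of replicate 2. Over the 15 alternatives the log2 value of TET3 was -0.56 to -0.28. TET2 (chr4:105145875-105279803, + strand) was at 16.3 and 21.1 CPM in PC-3-RRM2, against 23.2 and 23.9 CPM in PC-3-EV (log2 -0.34, SE 0.14, 95% interval -0.65 to -0.02, adjusted p = 0.0936). The PC-3-RRM2 libraries disagreed more with each other on TET2 than the PC-3-EV libraries did, and without the PC-3-RRM2 library of replicate 1 the log2 value was -0.16. TET2 over TET3 was 0.908 and 1.42 in PC-3-RRM2 and 1.11 and 1.05 in PC-3-EV, which overlap. The difference between the 2 PC-3-RRM2 libraries followed the GC content of transcripts across 15144 genes (r = -0.559 for replicate 2 minus replicate 1, across genes, which are not independent replicates). In PC-3-EV the same difference gave r = 0.319, and the difference between groups r = -0.0473. TET2 has a GC content of 43.1% and TET3 of 52.3%. With GC-adjusted offsets, TET2 was at -0.38 (adjusted p = 0.00587) and TET3 at -0.41 (adjusted p = 0.00459), and still neither passed the fold threshold.

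Within PRC2 the enzyme EZH2 rose, while its partners SUZ12 and EED were at lower levels in PC-3-RRM2 cells and were not called. EZH2 (chr7:148807372-148884349, - strand) was at 24.0 and 26.8 CPM in PC-3-RRM2, against 16.7 and 16.9 CPM in PC-3-EV. The log2 fold change was 0.59 (SE 0.11, 95% interval 0.35 to 0.84, adjusted p = 0.00457), a 1.51-fold rise with an interval of 1.27 to 1.80. Of the 15 alternatives, 7 put EZH2 under the fold threshold or, in a test against that threshold, past the limit on p, among them leaving out either PC-3-EV library (0.56 each) or the PC-3-RRM2 library of replicate 2 (0.51). Adjusted p stayed at or under 0.0345 in the 14 alternatives that test against no change.

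SUZ12 and EED, the scaffold subunit and the subunit that binds methylated H3K27, lay the other way. SUZ12 (chr17:31937010-32001045, + strand) was at 47.5 and 51.0 CPM in PC-3-RRM2, against 65.3 and 64.2 CPM in PC-3-EV. The groups did not overlap, and the log2 fold change of -0.39 (SE 0.08, 95% interval -0.59 to -0.20, adjusted p = 0.00896) was under the fold threshold. Adjusted p was 0.0666 without the PC-3-EV library of replicate 1. Reads of SUZ12 can be shared with its pseudogene SUZ12P1, listed with 153 and 187 estimated counts in PC-3-RRM2 and 222 and 160 in PC-3-EV, and the estimated counts of SUZ12 were not whole in any of the 4 libraries. EED (chr11:86244384-86278810, + strand) had 319 and 364 counts in PC-3-RRM2, against 508 and 453 in PC-3-EV, and averaged 11.3 ± 1.06 CPM in PC-3-RRM2 and 14.1 ± 0.976 CPM in PC-3-EV (SD, n = 2 each). Its groups did not overlap, and its log2 fold change was -0.33 (SE 0.13, 95% interval -0.63 to -0.02, adjusted p = 0.0896). With GC-adjusted offsets EED was at -0.44 (adjusted p = 0.00422), still under the fold threshold.

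The ratio of EZH2 to SUZ12 counts was 0.505 and 0.525 in PC-3-RRM2, against 0.255 and 0.264 in PC-3-EV, a 1.98-fold difference. The ratio of EZH2 to EED was 2.29 and 2.23 in PC-3-RRM2, against 1.24 and 1.14 in PC-3-EV, a 1.90-fold difference. Both ratios separated the groups. That separation was already set by the levels, since EZH2 was higher and SUZ12 and EED lower in both PC-3-RRM2 libraries. EZH1, the paralogue that many non-dividing cells use, was at 46.8 and 45.6 CPM in PC-3-RRM2, against 31.5 and 30.7 CPM in PC-3-EV (log2 0.57, adjusted p = 0.00207, under the fold threshold). EZH2 over EZH1 was 0.513 and 0.587 in PC-3-RRM2 and 0.530 and 0.552 in PC-3-EV, so the ratio of the 2 enzymes overlapped between groups.

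**Figure D3:**
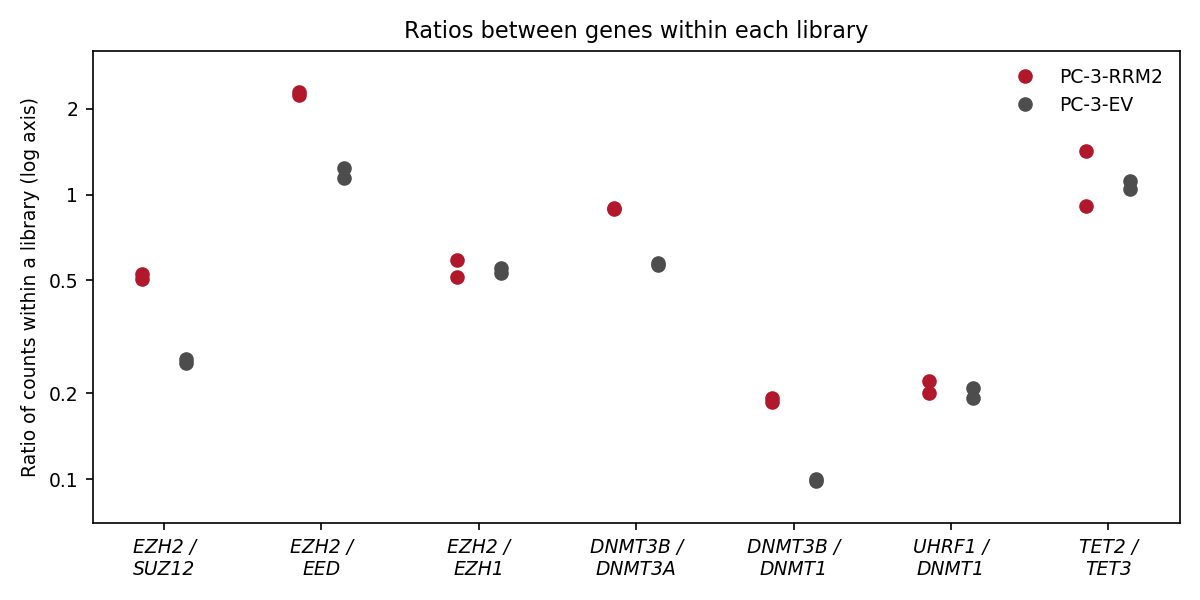
Ratios of the counts of 2 genes within each library (vertical log axis) in PC-3-RRM2 (red, left) and PC-3-EV (grey, right), 2 libraries of each. The ratios of EZH2 to SUZ12 and EED and of DNMT3B to DNMT3A and DNMT1 separate the groups, and those of EZH2 to EZH1, UHRF1 to DNMT1 and TET2 to TET3 overlap.

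The sequences before the EZH2 and SUZ12 rows are shown because these subunits of 1 complex differed in opposite directions and both start in CpG-rich DNA, the substrate of the DNA methyltransferases described above. They are taken from RefSeq promoter windows of GRCh38.p14 (250 bases before to 50 after a start), trimmed to the part outside the gene's row, and written 5' to 3' on the gene's strand with each CpG in capitals. The EZH2 stretch is chr7:148884350-148884541 (- strand) and the SUZ12 stretch chr17:31936757-31937006 (+ strand).
EZH2: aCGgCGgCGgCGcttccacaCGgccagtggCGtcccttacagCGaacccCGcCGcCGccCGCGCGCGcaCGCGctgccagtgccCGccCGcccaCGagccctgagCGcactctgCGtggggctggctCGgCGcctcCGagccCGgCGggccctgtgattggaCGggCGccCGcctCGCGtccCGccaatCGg
SUZ12: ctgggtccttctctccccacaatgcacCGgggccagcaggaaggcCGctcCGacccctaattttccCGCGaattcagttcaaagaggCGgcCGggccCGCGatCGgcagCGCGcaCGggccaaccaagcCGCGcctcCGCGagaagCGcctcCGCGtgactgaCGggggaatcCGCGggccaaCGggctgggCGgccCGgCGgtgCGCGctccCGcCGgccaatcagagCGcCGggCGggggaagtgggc
The EZH2 stretch holds 33 CpG in 192 bases and the SUZ12 stretch 34 CpG in 250 bases. The whole 300-base windows hold 46 and 45 CpG for EZH2 and 40 for SUZ12, beside a median of 24 over the 16915 windows of genes tested. No methylation was measured in these cells.

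All 9 genes matched RefSeq windows, 19 in all, which ranged from 3 to 46 CpG. The window with 3 CpG is that of DNMT3B. It lies at an internal start. It is 1 of the 12 of the 19 windows that lie wholly inside the gene's row, among them all 3 of UHRF1, 4 of the 6 of DNMT3A and the 1 of EED. The EED window is at the RefSeq start of the gene, and the row begins before that start. The other windows held 30 CpG for DNMT1, 36 to 46 for UHRF1, 18 to 46 for DNMT3A, 13 and 35 for TET2, 45 and 33 for TET3 and 16 for EED. Sites of the E2F type, which S-phase genes often carry, were searched on both strands as TTTGGCGC, TTTCGCGC and TTTCCCGC, motifs that can overlap on opposite strands. They occurred in 5 of the 19 windows (DNMT1, 2 of UHRF1, EZH2 and SUZ12), 1 motif in each and both UHRF1 matches inside that gene's row, beside 3.90% of the windows of genes tested and 2.74% of all 35116 windows. The genes with a match include DNMT1 and UHRF1, whose groups overlapped, and SUZ12, which was at a lower level, and a match is a description of letters and not a bound site.

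Levels of different genes were compared per kb of transcript, with the longest transcript of each gene as its length. DNMT1 was highest at 18.7 CPM per kb in PC-3-RRM2 and 17.9 in PC-3-EV. SUZ12 followed at 10.97 CPM per kb in PC-3-RRM2 and 14.4 in PC-3-EV. EZH2, at 6.97 in PC-3-RRM2 and 4.62 in PC-3-EV, was 3rd in PC-3-RRM2 and 4th in PC-3-EV, where EED stood above it. TET2 had 1.84 CPM per kb in PC-3-RRM2 and 2.32 in PC-3-EV, and TET3 had 1.44 in PC-3-RRM2 and 1.92 in PC-3-EV. DNMT3B was at 4.43 CPM per kb in PC-3-RRM2 and 2.21 in PC-3-EV, while EED was at 4.07 in PC-3-RRM2 and 5.10 in PC-3-EV. The order depends on the length chosen. With the median transcript length DNMT1 stayed first in both groups, but DNMT3A moved to 2nd place in PC-3-RRM2 and 3rd in PC-3-EV, against 7th in PC-3-RRM2 and 9th in PC-3-EV with the longest.

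Partners of these enzymes and related lists are set beside all genes tested, of which 9.97% were called higher and 8.19% lower. Of 13 tested genes for other PRC2 subunits and H3K27 demethylases, 1 was called higher, LCORL, which binds PRC2 and was at 35.9 and 37.6 CPM in PC-3-RRM2, against 20.8 and 20.3 CPM in PC-3-EV. None of these was called lower (2 at an unadjusted p below 0.05, 0 by DESeq2 and limma-voom), and their median log2 fold change was 0.16. Of 20 tested partners and readers of DNA methylation, 2 were called lower, ZBTB4 (1.501-fold lower) and MBD6 (1.58-fold lower), and none higher (6 at an unadjusted p below 0.05, 0 by DESeq2 and limma-voom). ZBTB4 binds methylated CpG and MBD6 belongs to the methyl-CpG-binding domain family. Both lost the call without the PC-3-RRM2 library of replicate 2 and with GC-adjusted offsets. The median of the 20 was 0.11.

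The list for Polycomb repressive complex 1 (PRC1), which reads and adds marks beside those of PRC2, had 30 tested genes. Of these, 2 were called higher and 3 lower (16.7%, beside 18.2% of all genes), with a median log2 fold change of -0.12. The list also holds BAP1, USP16, ASXL1 and ASXL2, which act in removing a PRC1 mark and are not PRC1 subunits. None of these was called. SCML1, a Polycomb-type SAM domain protein, was at 58.4 and 64.7 CPM in PC-3-RRM2, against 25.1 and 24.8 CPM in PC-3-EV (2.47-fold). SCML2 was 1.61-fold higher, a call lost without the PC-3-EV or the PC-3-RRM2 library of replicate 2. PHC2 (1.51-fold lower), CBX6 (1.53-fold lower) and the ubiquitin ligase RING1 (1.55-fold lower) were not called without the PC-3-RRM2 library of replicate 2 or with GC-adjusted offsets. For histone H3 lysine 9 methylation and HP1, 21 genes were tested, 1 was called lower, the demethylase KDM4B (1.59-fold, lost without the PC-3-RRM2 library of replicate 2), and none higher (3 at an unadjusted p below 0.05, 0 by DESeq2 and limma-voom). The median of this list was -0.10.

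The methyl donor cycle supplies S-adenosylmethionine to all of these methyltransferases. Its largest difference was in MAT2A, the enzyme that makes S-adenosylmethionine in most tissues, at 333 and 371 CPM in PC-3-RRM2, against 1240 and 1185 CPM in PC-3-EV. MAT2A fell 3.45-fold (log2 -1.79, SE 0.08, adjusted p = 6.04e-06) and was called under all 15 alternatives. NNMT, which uses the donor to methylate nicotinamide, was 1.51-fold lower and lost the call without the PC-3-RRM2 library of replicate 1. Of the 11 genes tested, 3 were called lower and none higher (3 at an unadjusted p below 0.05, 0 by DESeq2 and limma-voom), with a median of 0.06.

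S-phase genes are given beside DNMT3B and EZH2, since both are known to be more abundant in dividing cells. Of 36 tested genes of G1/S and replication, 12 were called higher (33.3%, beside 9.97% of all genes). None was called lower (2 at an unadjusted p below 0.05, 0 by DESeq2 and limma-voom). The median log2 fold change was 0.45, and 30 of the 36 were above 0. The summed level of the 36 was 1109 and 1093 CPM in PC-3-RRM2, against 907.7 and 908.4 CPM in PC-3-EV. Examples called higher are the cyclin CCNA2 (2.31-fold), the transcription factor MYBL2 (2.16-fold), the replication factor GINS1 (1.86-fold) and the licensing factor CDC6 (1.79-fold). Among those not called, MCM3 was 1.29-fold lower (adjusted p = 0.00937 by edgeR) and PCNA 1.08-fold lower (adjusted p = 0.297). DNMT1 and UHRF1, which copy the methylation pattern to the new strand, were at log2 0.07 and 0.13 and were not called. The part of the S-phase genes in the values of DNMT3B and EZH2 was not tested. In a test against the 1.5-fold threshold, 4 of the 36 were called higher.

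**Figure D4:**
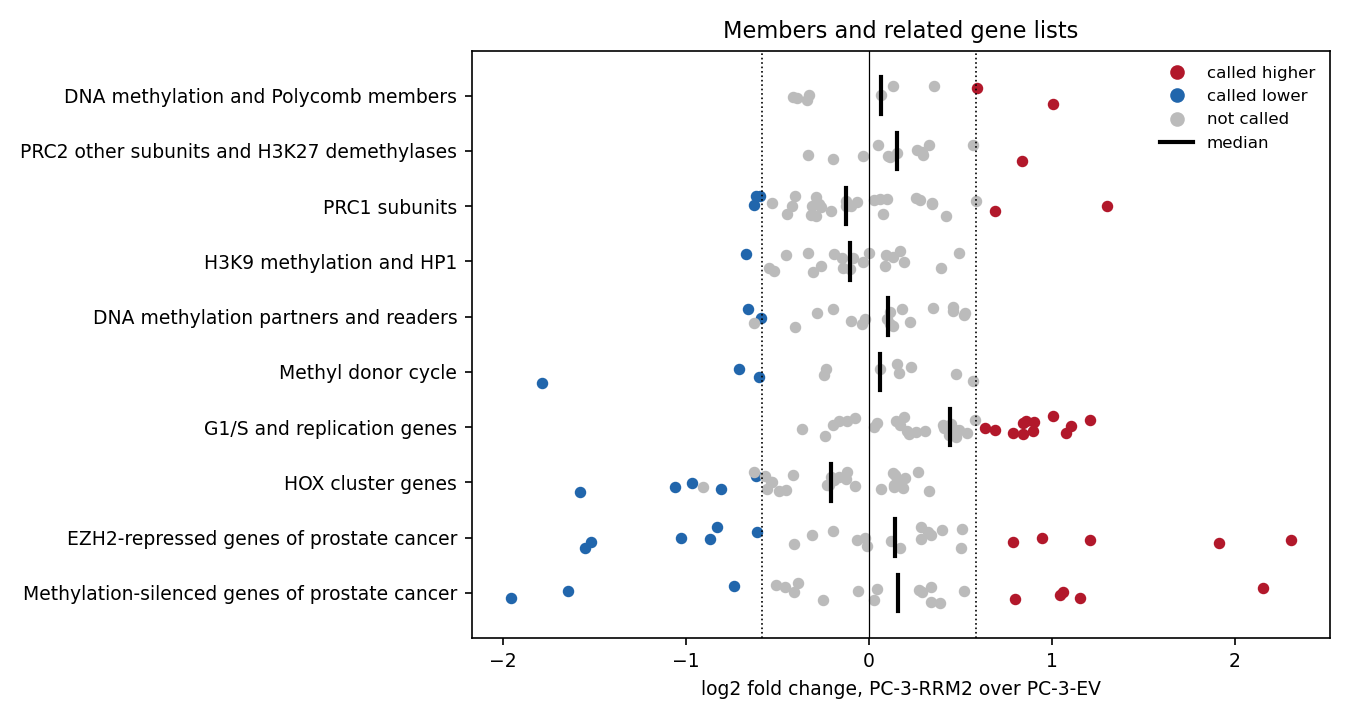
Log2 fold change, PC-3-RRM2 over PC-3-EV (horizontal axis), of each tested gene in the 9 members and in related lists, 1 point a gene, with the list's median as a bar and dotted lines at the 1.5-fold threshold. Red was called higher, blue lower and grey neither. The lists of genes described as silenced by EZH2 or by DNA methylation hold points on both sides.

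Genes listed, from general knowledge, as silenced by these enzymes in prostate cancer moved both ways. Of 26 tested genes listed as repressed by EZH2, 5 were called higher and 6 lower (42.3%, beside 18.2% of all genes), with a median of 0.15. The 5 include CXCL10, with 10 and 14 counts in PC-3-RRM2 against 5 and 2 in PC-3-EV. CXCL10 passed the filter on low counts only through PC-3-RRM2, which favoured its call. The E-cadherin gene CDH1 was at 108.8 and 115.5 CPM in PC-3-RRM2, against 22.9 and 22.4 CPM in PC-3-EV. Others called higher were the growth factor binding protein IGFBP3 (2.31-fold), the cytokine IL24 (1.93-fold) and the cell cycle inhibitor CDKN1C (1.73-fold, lost without the PC-3-EV library of replicate 2). Among the lower ones were the receptor BMPR1B (2.93-fold), the transcription factor RUNX3 (2.86-fold), the matrix protein CCN3, listed as NOV (2.03-fold), and the ligand WNT5A (1.78-fold). Being listed did not mean being silent in PC-3-EV. There IGFBP3 was at 501 and 510 CPM and IL24 at 89.3 and 86.9 CPM, while CDKN1C was at 3.57 and 3.27 CPM.

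Of 22 tested genes listed for promoter methylation in prostate cancer, 5 were called higher and 3 lower (36.4%, beside 18.2% of all genes), with a median of 0.16. The higher ones include the laminin chain LAMB3 (2.09-fold), the cyclooxygenase PTGS2 (2.07-fold) and the Wnt antagonist DKK3 (4.46-fold), which was at 1.38 and 1.25 CPM in PC-3-RRM2, against 0.291 and 0.294 CPM in PC-3-EV. LAMB3 was not silent in PC-3-EV, at 188 and 203 CPM. The lower ones were APC (1.67-fold), the cyclin CCND2 (3.13-fold, not called by DESeq2) and SFRP1 (3.88-fold, adjusted p = 0.0487). DKK3 had 11 and 9 counts in PC-3-EV, while CCND2 had 13 and 9 and SFRP1 8 and 1 in PC-3-RRM2. DKK3, CCND2 and SFRP1 passed the filter on low counts only through the group where they were higher. Their calls were thus favoured by the filter, and the share of 36.4% includes them. SFRP1 rests on few counts and lost the call without either PC-3-EV library and without the PC-3-RRM2 library of replicate 2. Of 33 tested HOX genes, classical Polycomb targets, 5 were called lower and none higher (0 at an unadjusted p below 0.05, 0 by DESeq2 and limma-voom), with a median of -0.21. HOXB13, a prostate lineage factor, was at 71.2 and 61.9 CPM in PC-3-RRM2, against 191.0 and 206.8 CPM in PC-3-EV, and HOXA13 was 1.95-fold, HOXB6 1.75-fold and HOXB5 1.53-fold lower. HOXB5 lost the call without the PC-3-EV library of replicate 2 and without the PC-3-RRM2 library of replicate 1. Of 44 cancer-germline genes, which DNA methylation is known to keep silent in somatic cells, 4 were tested and 1 was called higher, MAGEA6, at 2.07 and 3.03 CPM in PC-3-RRM2, against 0.397 and 0.687 CPM in PC-3-EV. Its near-identical copy MAGEA3 can share these reads.

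Among markers of other cells, the 4 endothelial genes tested were called lower (ROBO4, PECAM1, KDR and ESAM), with a summed level of 37.8 and 37.6 CPM in PC-3-RRM2, against 79.8 and 80.8 CPM in PC-3-EV. Of the endothelial genes that the filter removed, CDH5 had 6 and 9 counts in PC-3-RRM2 against 0 and 0 in PC-3-EV. VWF had 4 and 4 in PC-3-RRM2 against 2 and 1 in PC-3-EV, and TEK had 2 and 3 in each group. Without that filter, 1 endothelial gene was called higher. The fibroblast list had 1 of 6 called higher (LUM) and 2 lower (PDGFRA and COL3A1), and the leukocyte list 1 of 4 higher (CSF1R, with 18 and 11 counts in PC-3-RRM2 against 3 and 0 in PC-3-EV). CSF1R passed the filter on low counts only through PC-3-RRM2, which favoured its call. The carcinoma epithelium list had 2 of 6 called higher (EPCAM and CDH1) and none lower (1 at an unadjusted p below 0.05, 0 by DESeq2 and 1 by limma-voom). The gene nearest to a lower call was the keratin KRT19, 1.497-fold lower (adjusted p = 0.02 by edgeR), and 1 gene of the list was called lower under 7 of the 15 alternatives, among them leaving out replicate 1 of either group. ESAM lost its call without replicate 2 of either group, CSF1R without the PC-3-EV library of replicate 2, and COL3A1 without either PC-3-EV library or the PC-3-RRM2 library of replicate 2. The part of these genes in the members' values was not tested.

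The tested genes whose profile over the 4 libraries lay nearest to that of a called member were found by the Euclidean distance of centred log2 CPM, among 11648 genes with a mean of at least 5 CPM. Nearest to DNMT3B were the histamine methyltransferase HNMT (distance 0.0445), the replication factor GINS2 (0.0681) and the scaffold protein IQGAP3 (0.0725). Nearest to EZH2 were IL18BP, a binding protein of an interleukin (0.0145), and the small GTPase RAB32 (0.0154). With 4 libraries in 2 groups, a small distance mostly states a like difference between the groups.

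**Figure D5:**
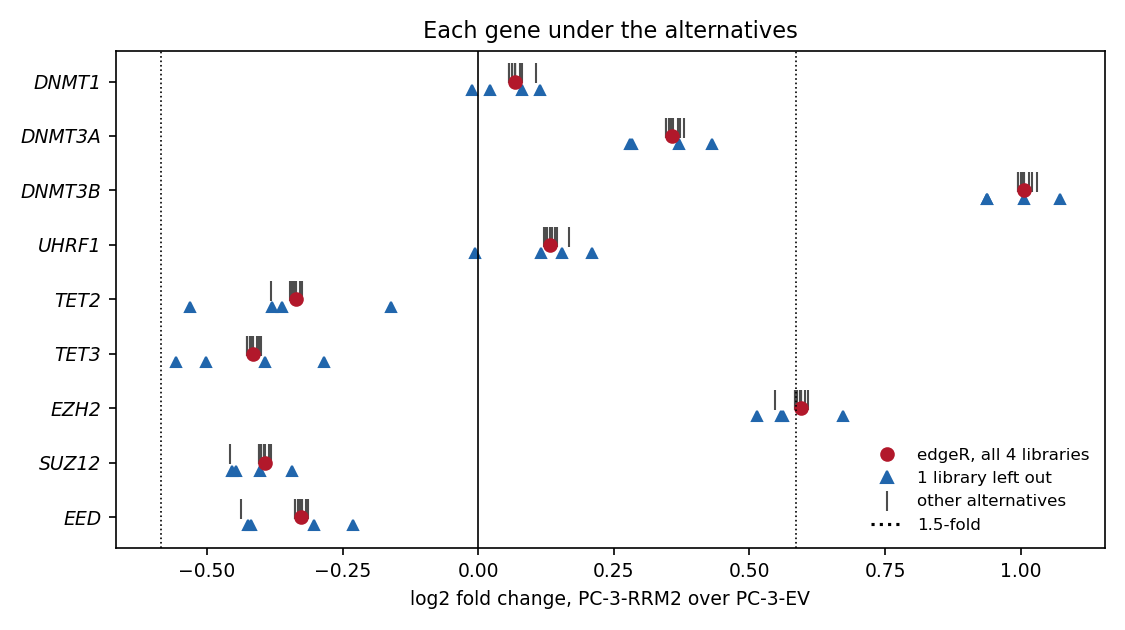
Log2 fold change of each gene, PC-3-RRM2 over PC-3-EV (horizontal axis), in the edgeR fit on all 4 libraries (red), with 1 library left out (blue triangles) and under the other alternatives (grey ticks), with dotted lines at the 1.5-fold threshold. DNMT3B stays past the threshold, EZH2 falls on both sides of it, and DNMT1 and UHRF1 reach 0.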

How the data were processed

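RNA was sequenced from 4 libraries of PC-3 cells, and the authors quantified reads per gene in Partek Flow. No software version is stated, and alignment, gene annotation and strandedness were not given in the sources used here. Estimated counts, not normalized, were deposited, and these were rounded to whole numbers. Column names that read R2 were taken as RRM2. Of the 17634 rows, 23 had symbols turned into dates, blank or repeated and were not named. Positions overlapped the RefSeq gene of the same name on GRCh38.p14 for 99.8% of 16499 matched symbols. Ribosomal RNA rows held 4.06 to 4.73% of counts.

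Genes were filtered with filterByExpr, scaled by TMM and tested in edgeR 4.0.16 by quasi-likelihood F-test (R 4.3.3), with Benjamini-Hochberg adjustment over 15781 genes. The thresholds (adjusted p below 0.05, fold change over 1.5) are those the study states. The standard error is the log2 fold change divided by the square root of F. Alternatives used limma 3.58.1 and DESeq2 1.42.0, other scalings and filters, a test against the fold threshold (glmTreat), a replicate block and leaving out each library; a crossed block and GC-adjusted offsets were added after seeing the data. The statistics were tested on simulated data. Named genes were the 9 members, RRM2, up to 4 called genes each way of each list by smallest p (the 2 most abundant where none was called) and the 3 nearest profiles of each called member; a few more names were chosen once their values had been seen. Some genes that this rule takes in are not reported here. The members and lists were chosen with earlier results of these data known, and the lists were compiled from general knowledge. The labels do not say that libraries came from separate cultures, so the p-values reflect only how these libraries vary, possibly for technical reasons.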

Additional observations from a re-analysis of the deposited data

How the results depend on the processing

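DNMT3B was called higher under all 15 alternatives. EZH2 was not called with RLE factors (log2 0.5841), with DESeq2 (0.5842), in the test against the 1.5-fold threshold (0.5948, adjusted p = 1) or with GC-adjusted offsets (0.5478), and leaving out 1 library gave 0.51 to 0.67. Members called higher then numbered 1 instead of 2, and 1 to 2 with a library left out. DNMT1 ranged from -0.01063 to 0.1134 and UHRF1 from -0.005973 to 0.2093 (log2) with 1 library left out, both negative only without the PC-3-EV library of replicate 1. The cause was not tested. Over all genes, 781 were called higher and 479 lower in the test against the fold threshold, against 1574 higher and 1292 lower. The other counts over all genes were within 1.5 times these.

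With the replicate block, 1628 genes were called higher and 1396 lower, and the calls of the 9 members were the same. Same-numbered libraries deviated from their group means with a correlation of -0.269, and only 2 numbers are shared, so the numbers were not taken to pair the samples. With the crossed replicate block, 1722 genes were called higher and 1531 lower. Differences under the fold threshold, such as those of DNMT3A, TET3 and SUZ12, rest on 2 libraries of each line.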
